A study of Homo sapiens with 18 samples.

Results

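The inducible HSP70 genes HSPA1A, HSPA1B, HSPA1L, HSPA6 and HSPA7 were followed across human cells that carried RHOXF1, RHOXF2 or a control vector. A row of the expression table, which stands for 1 transcript cluster of the array, was taken when every gene symbol listed for it was among these 5. This gave 10 rows of the 21214 rows with a symbol and of the 33297 rows in all. The genes were chosen by their measured differences between RHOXF2 and control cells at 48 h, with earlier results of these arrays known. Levels at 48 h in control and RHOXF2 cells, and every difference that uses those arrays, are therefore given as a description, with no p-value for any member. Where member rows past a threshold are counted in those comparisons, the share of all rows stands beside the count, and nothing is read from either.

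HSP70 proteins are chaperones that bind stretches of unfolded polypeptide and release them in a cycle driven by ATP, helped by J-domain proteins and by nucleotide exchange factors. HSPA1A and HSPA1B encode nearly the same protein and are the main stress-induced forms, switched on when heat shock factor 1 binds heat shock elements near their start. HSPA6 is a strictly stress-induced form, HSPA7 is its pseudogene copy, and HSPA1L, which lies beside HSPA1A, is known mainly from testis and is not a typical heat-induced gene, so the word inducible fits it by family and position only.

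The cells were HEK293, an established line derived from human embryonic kidney. They were transiently transfected with Lipofectamine 2000 and a RHOXF1 expression vector, a RHOXF2 expression vector or a control vector, and total RNA was taken 24 h or 48 h later. This made 6 groups of 3 arrays, described as biological triplicates: control, RHOXF1 and RHOXF2 at each time. RHOXF1 and RHOXF2 are homeodomain proteins of the reproductive homeobox family, and the wild-type clones were compared with the control to see which transcripts differ. Every group, control included, had gone through transfection, and no untransfected cells were analysed here. The control vector is called empty in 1 label and pCMV6-AC-GFP in another, and the labels leave unsaid if GFP is also encoded by the RHOX plasmids. Transfection was transient, so a culture can hold cells without the plasmid, and in RNA from whole cultures fewer responding cells and less RNA per cell cannot be told apart.

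The transfected genes matched the labels: RHOXF1 read 12.13 to 12.32 in log2 RMA units on the RHOXF1 arrays and 5.67 to 6.56 on the control arrays, and the RHOXF2 row read 12.78 to 12.96 on the RHOXF2 arrays and 6.44 to 7.12 on the control arrays. The RHOXF1 row also read 6.94 to 9.12 on the RHOXF2 arrays. Of 6 marker genes of the HEK293 line, 5 lay above the median level of named rows, 7.47, while none of 4 lymphoid and myeloid, 2 endothelial, 1 hepatocyte and 4 testis markers did. Of 2 fibroblast markers, COL1A1 lay above it and DCN below it, and their summed level ran from 10.98 to 11.92 over the arrays. Along the first principal component, 34.1% of the variance, 24 h arrays lay at -17.2 to -8.71 and 48 h arrays at 9.36 to 26.3, except replicate 3 of RHOXF2 at 48 h at -4.48. Arrays of 24 h and of 48 h carry separate runs of array numbers, and batch cannot be told apart from time.

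The members occupy 2 small clusters of the genome, here in GRCh38.p14 coordinates from RefSeq, which matched 5 of 5 genes. HSPA1L (chr6:31809619-31815283), HSPA1A (chr6:31815543-31817942) and HSPA1B (chr6:31827738-31830254) sit side by side on chromosome 6, and HSPA1L and HSPA1A start in opposite directions with 259 bases between their starts. HSPA6 (chr1:161524540-161526894) and HSPA7 (chr1:161606172-161608550) lie on chromosome 1 among Fc gamma receptor genes. The build behind the array's annotation is not given in the sources used here.

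The stretch before the start of each gene is shown because heat shock elements, inverted repeats of the unit GAA, are the known landing sites of heat shock factor 1 there. Letters run 5′ to 3′ on the gene's own strand over the 200 bases before the RefSeq start, from GRCh38.p14, and capitals mark matches to GAANNTTC or TTCNNGAA. The windows are chr6:31815343-31815542 on the plus strand for HSPA1A, chr6:31827538-31827737 on the plus strand for HSPA1B and chr1:161524340-161524539 on the plus strand for HSPA6.
HSPA1A: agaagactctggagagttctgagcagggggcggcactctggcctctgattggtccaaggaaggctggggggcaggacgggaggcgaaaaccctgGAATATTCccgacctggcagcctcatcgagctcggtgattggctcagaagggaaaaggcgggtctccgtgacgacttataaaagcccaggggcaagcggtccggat
HSPA1B: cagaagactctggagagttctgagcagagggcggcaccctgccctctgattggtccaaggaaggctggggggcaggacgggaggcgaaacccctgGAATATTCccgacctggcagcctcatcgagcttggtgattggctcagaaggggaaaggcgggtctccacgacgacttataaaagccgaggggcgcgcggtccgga
HSPA6: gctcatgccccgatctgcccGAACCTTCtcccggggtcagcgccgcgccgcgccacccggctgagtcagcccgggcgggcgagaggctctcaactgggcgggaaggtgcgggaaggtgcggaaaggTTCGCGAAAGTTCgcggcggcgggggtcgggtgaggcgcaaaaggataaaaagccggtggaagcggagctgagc

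Both HSPA1 promoters hold the same pair, GAATATTC, at -106 from the start in HSPA1A and at -105 in HSPA1B. HSPA6 holds GAACCTTC at -180 and the overlapping run TTCGCGAAAGTTC at -74, which contains the pairs TTCGCGAA and GAAAGTTC. HSPA1L shares its upstream region with HSPA1A, read from the other strand, and the GAATATTC of HSPA1A lies at -161 from the HSPA1L start. Over windows of 300 bases, 250 before and 50 after the start, searched on both strands, either pair occurs in 13.5% of 35116 RefSeq promoters. A run of 3 alternating GAA and TTC units with any 2 bases between them, found among the members in HSPA6 alone, occurs in 0.49%.

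Other motifs separated HSPA6 from the HSPA1 genes. HSPA1A and HSPA1B each held CCAAT 2 times, present in 34.6% of promoters, and TATAAA once, at -30 and -29, present in 11.5%. HSPA6 held neither in its window but held TGAGTCA 2 times, present in 4.95%. The homeobox core TAAT, present in 50.2% of promoters, matched only HSPA1L among the 4 windows, 43 bases after its start. The HSPA1A and HSPA1B windows were identical at 277 of 301 aligned columns (92.0%), and a match of letters is not evidence that a protein binds.

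Near-identical genes also share array rows. All 5 HSPA1 rows list HSPA1A together with HSPA1B, so the levels of these genes cannot be told apart. They formed 2 profiles, each of rows within 0.1 log2 of each other on every array: rows 8118310 and 8179322, and rows 8118314, 8178086 and 8179324. The 3 HSPA1L rows held identical values and are given as row 8125134. HSPA6 had row 7906764 of its own, and row 7906775 lists HSPA7 with HSPA6. The 10 rows thus held 7 distinct sets of values and 5 profiles.

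The rows differ in how strongly their probes respond, so brightness does not rank the genes and is given only to place each row on its array. As a percentile among all 33297 rows of its array, with or without a symbol, row 8118310 ranged from 98.8 to 99.8 over the 18 arrays. Row 8118314 ranged from 96.5 to 99.3. HSPA6 ranged from 43.8 to 79.0, the shared HSPA6/HSPA7 row from 58.5 to 86.1, and HSPA1L from 33.1 to 52.4.

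HSPA6 stood highest in RHOXF2 cells at both times. Its row read 6.66, 6.65 and 6.48 in control cells at 24 h, 6.33, 6.94 and 6.82 in RHOXF1 cells, and 6.89, 7.70 and 7.84 in RHOXF2 cells. The RHOXF2 arrays lay above all control arrays but their lowest overlapped the RHOXF1 arrays. At 48 h it read 6.56, 6.45 and 6.28 in control cells, 6.87, 6.91 and 6.81 in RHOXF1 cells, and 8.70, 9.12 and 7.43 in RHOXF2 cells. All 3 RHOXF2 arrays of 48 h lay above every RHOXF1 and control array of 48 h, with replicate 3 well below the other arrays of its group.

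The row shared by HSPA7 and HSPA6 behaved in part differently. It read 8.48, 8.46 and 8.44 in control cells at 24 h, 8.44, 8.37 and 7.96 in RHOXF1 cells, and 8.48, 9.36 and 8.36 in RHOXF2 cells. At 24 h RHOXF2 replicate 2 stood above the other arrays and RHOXF1 replicate 3 below them. At 48 h it read 7.60, 8.08 and 7.47 in control cells, 8.41, 8.44 and 8.50 in RHOXF1 cells, and 9.61, 9.78 and 8.79 in RHOXF2 cells. The 3 groups of 48 h did not overlap, and the control arrays were the low ones.

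**Figure D1:**
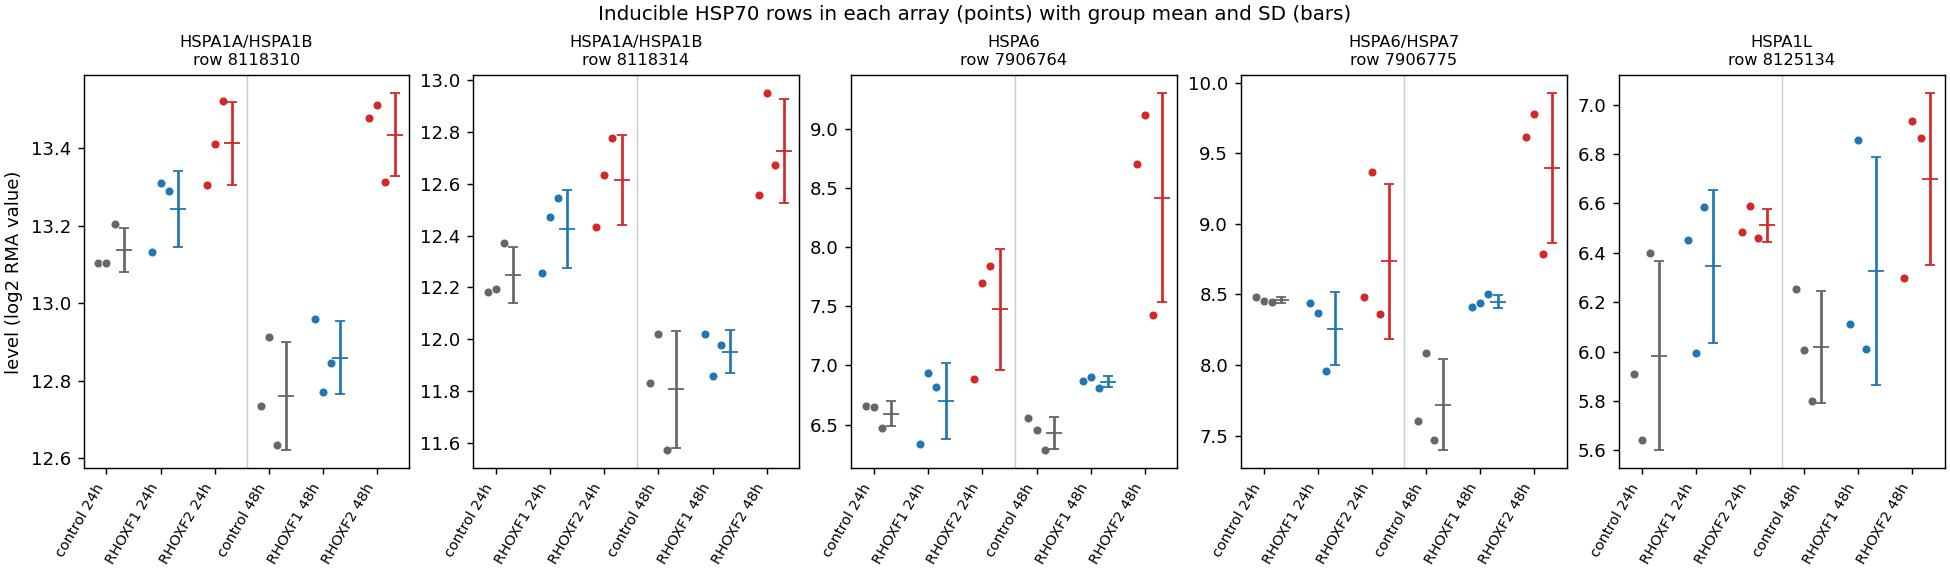
Log2 RMA level of each of the 5 profiles on every array, by vector and time, with points for arrays and a tick and bar for the group mean and SD. The RHOXF2 group of 48 h has the highest mean in all 5 panels, and its HSPA6 arrays spread from 7.43 to 9.12.

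For HSPA1A/HSPA1B, the main stress-induced HSP70 pair, row 8118310 read 13.10, 13.11 and 13.20 in control cells at 24 h, 13.13, 13.31 and 13.29 in RHOXF1 cells, and 13.31, 13.41 and 13.52 in RHOXF2 cells. At 48 h it read 12.73, 12.91 and 12.63 in control cells, 12.96, 12.77 and 12.85 in RHOXF1 cells, and 13.48, 13.51 and 13.31 in RHOXF2 cells. The RHOXF2 arrays stayed at their 24 h range while both other groups read lower at 48 h than at 24 h. Row 8118314 of the same genes followed it, with 12.18, 12.19 and 12.37 in control cells, 12.26, 12.47 and 12.54 in RHOXF1 cells, and 12.43, 12.63 and 12.78 in RHOXF2 cells at 24 h. Its 48 h levels were 11.83, 12.02 and 11.57 in control cells, 12.02, 11.86 and 11.98 in RHOXF1 cells, and 12.56, 12.95 and 12.67 in RHOXF2 cells. In both profiles the RHOXF2 arrays of 48 h lay above all other 48 h arrays.

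HSPA1L, the testis-expressed relative, was the profile whose RHOXF2 and RHOXF1 arrays still overlapped at 48 h. Its row read 5.91, 5.64 and 6.40 in control cells at 24 h, 6.45, 5.996 and 6.59 in RHOXF1 cells, and 6.48, 6.59 and 6.46 in RHOXF2 cells. At 48 h it read 6.25, 6.01 and 5.80 in control cells, 6.11, 6.86 and 6.01 in RHOXF1 cells, and 6.30, 6.93 and 6.86 in RHOXF2 cells. The RHOXF2 arrays lay above the control arrays of their time, by less than 0.1 at the nearest arrays, and overlapped the RHOXF1 arrays at both times. None of the 4 testis markers (PRM1, PRM2, TNP1, ACRV1) lay above the median level, their summed level running from 19.5 to 21.4 over the arrays.

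The order of the group means placed RHOXF2 at 48 h first and RHOXF2 at 24 h second in all 5 profiles. Below them the order varied: control cells of 48 h came last for HSPA6, for the HSPA6/HSPA7 row and for both HSPA1 profiles, and control cells of 24 h came last for HSPA1L. Neighbouring groups in these orders overlapped, except control at 24 h and RHOXF1 at 48 h in both HSPA1 profiles, whose means were 0.28 and 0.30 apart.

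At 24 h none of the member rows differed from control by the test. With limma and Benjamini-Hochberg adjustment over the 21214 rows, 0 of 10 member rows passed 0.05 for RHOXF2 against control, where 0.00943% of all rows passed. HSPA6 read 0.88 higher in log2 (SE 0.30, n = 3 against 3, limma adjusted p = 0.477), with RHOXF2 arrays above control on 3 of 3 arrays, and this was the 4th largest upward difference of all rows. HSPA1A/HSPA1B read 0.28 higher (SE 0.09, limma adjusted p = 0.462) in row 8118310 and 0.37 higher (SE 0.12, limma adjusted p = 0.475) in row 8118314. HSPA1L read 0.53 higher (SE 0.22, limma adjusted p = 0.562) and the HSPA6/HSPA7 row 0.27 higher (SE 0.24, limma adjusted p = 0.837), which was -0.04 without RHOXF2 replicate 2.

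Without adjustment 9 of the 10 rows had limma p under 0.05, against 7.99% of all rows, and the same number had RHOXF2 arrays all above the control arrays, against 3.89%; these rows stand for 4 profiles, and rows of 1 profile are not separate measurements. The exception was the HSPA6/HSPA7 row. The median over the 5 profiles was 0.37, beside -0.003 over all rows.

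No member passed the test for RHOXF1 against control at 24 h either. The differences were 0.10 for HSPA6 (limma adjusted p = 0.988), -0.20 for the HSPA6/HSPA7 row (0.971), 0.11 and 0.18 for the HSPA1A/HSPA1B profiles (0.965 and 0.961) and 0.36 for HSPA1L (0.961). The HSPA1L difference ranked 46th from the top of all rows and the HSPA6/HSPA7 one 20281st. None of the 10 rows passed, where 0.00471% of all rows did, and 0 had unadjusted limma p under 0.05, against 4.76%. On the HSPA6/HSPA7 row the RHOXF1 arrays all lay below the control arrays, as for 4.93% of all rows. Set directly against RHOXF1, RHOXF2 cells of 24 h read 0.78 higher for HSPA6, 0.48 for the HSPA6/HSPA7 row, and 0.17 to 0.19 for the HSPA1 and HSPA1L rows, all with limma adjusted p = 1.000. In that comparison 0 of 10 rows passed, where 0.0141% of all rows did, and 1 of 10, HSPA6, had unadjusted limma p under 0.05, against 1.7% of all rows. These p-values do not show that RHOXF1 and RHOXF2 cells are alike in these genes.

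At 48 h, where the members had been noticed, the values of RHOXF2 against control were 1.98 for HSPA6 (SE 0.30), 1.67 for the HSPA6/HSPA7 row (SE 0.24), 0.68 and 0.92 for the HSPA1A/HSPA1B profiles (SE 0.09 and 0.12) and 0.68 for HSPA1L (SE 0.22). In folds these are 3.96, 3.19, 1.60, 1.89 and 1.60. The highest value on each array lay between 14.1 and 14.4, not far above the HSPA1A/HSPA1B rows, so folds are not ranked between rows. Of the 10 rows 7 were called higher, where 0.0848% of all rows were, all profiles but HSPA1L. All 10 rows had RHOXF2 arrays above all control arrays, against 6.59%. Nothing is read from these counts. With only the 6 arrays of these groups in the fit, 0 member rows were called, and HSPA6 also lost its call when the variance model had a trend and was robust. Without RHOXF2 replicate 3 of 48 h, the array apart on the first component, the differences were 2.48, 1.98, 0.74, 0.94 and 0.60.

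**Figure D2:**
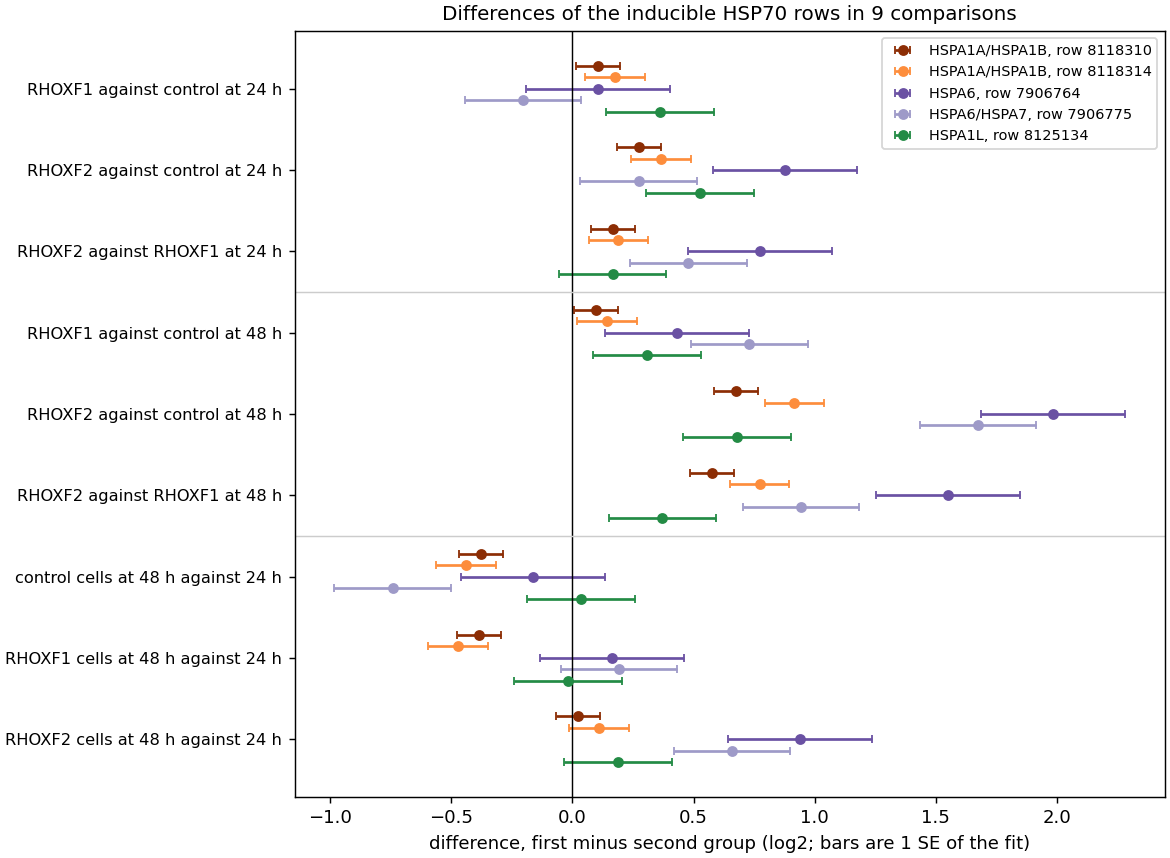
Log2 difference of each profile, first minus second group, in 9 comparisons, with bars of 1 SE of the fit. HSPA6 runs from 0.88 at 24 h to 1.98 at 48 h in RHOXF2 cells, and the RHOXF1 differences from control lie between -0.20 and 0.73.

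RHOXF1 cells of 48 h lay between control and RHOXF2 in group mean for all 5 profiles. Their differences from control were 0.43 for HSPA6, 0.73 for the HSPA6/HSPA7 row, 0.10 and 0.14 for the HSPA1 profiles and 0.31 for HSPA1L. Without RHOXF1 replicate 2, the highest of its group for HSPA1L, HSPA1L read 0.042, without RHOXF1 replicate 1 row 8118310 read 0.049, and without control replicate 3 the values were 0.036 and 0.026 for the HSPA1 profiles and 0.20 for HSPA1L. Without control replicate 2 the HSPA1 profiles read 0.17 and 0.25, and without RHOXF1 replicate 3 HSPA1L read 0.47. None of the 10 rows was called by limma, where 0.00943% of all rows were, and 1 of 10 had unadjusted p under 0.05, against 7.22%. Only HSPA6 and the HSPA6/HSPA7 row had RHOXF1 arrays all above the control arrays, against 7.17% of all rows. Against RHOXF1, RHOXF2 cells of 48 h read 1.55, 0.94, 0.58, 0.77 and 0.37 higher in the order HSPA6, HSPA6/HSPA7, HSPA1 row 8118310, HSPA1 row 8118314 and HSPA1L. There 5 of 10 rows, those of HSPA1A/HSPA1B, were called higher, where 0.0471% of all rows were, and in 7 of 10 rows, all but those of HSPA1L, the RHOXF2 arrays lay above all RHOXF1 arrays, against 4.46%. The RHOXF2 arrays are among those the genes were chosen on, so nothing is read from these counts, and the called count was 0 without RHOXF2 replicate 2 or without RHOXF1 replicate 2 or 3 and 3 without RHOXF2 replicate 1. Both comparisons with control use the same control arrays.

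The HSPA1A/HSPA1B rows also differed between the times. In RHOXF1 cells, HSPA1A/HSPA1B fell from 24 h to 48 h: row 8118310 fell by 0.38 (SE 0.09, n = 3 against 3, limma adjusted p = 0.0248) and row 8118314 fell by 0.47 (SE 0.12, limma adjusted p = 0.0379). All 5 HSPA1 rows passed, all lower, where 1.35% of all rows were called lower, and the arrays of the times did not overlap, as for 14.7% of all rows. These 5 rows stand for 2 profiles, and rows of 1 profile are not separate measurements. HSPA6 (0.17 higher at 48 h, limma adjusted p = 0.824), the HSPA6/HSPA7 row (0.19, limma adjusted p = 0.728) and HSPA1L (-0.02, limma adjusted p = 0.980) did not pass. Leaving out 1 array at a time kept the difference between -0.44 and -0.34 in row 8118310 and between -0.56 and -0.41 in row 8118314, but not the call: 0 rows passed without RHOXF1 24 h replicate 2 or 3 or without RHOXF1 48 h replicate 1, 2 or 3, and all 5 passed without RHOXF1 24 h replicate 1. With cyclic loess normalization 0 rows passed, and with all 33297 rows tested 2 did.

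In control cells the same rows read lower at 48 h by similar amounts, -0.38 and -0.44, and the HSPA6/HSPA7 row by -0.74, against -0.16 for HSPA6 and 0.04 for HSPA1L. Of the 10 rows 6 were called lower, where 7.89% of all rows were; the control arrays of 48 h are among those the genes were chosen on, so nothing is read from this. That count was 1 without control 48 h replicate 3 and 2 without control 24 h replicate 3. In RHOXF2 cells the HSPA1 profiles read 0.02 and 0.11 higher at 48 h than at 24 h, HSPA6 0.94 higher, the HSPA6/HSPA7 row 0.66 and HSPA1L 0.19. None of these rows was called by limma, where 1.24% of all rows were, and 2 of 10 had unadjusted p under 0.05, against 16.7%; without RHOXF2 48 h replicate 3, 2 rows were called.

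**Figure D3:**
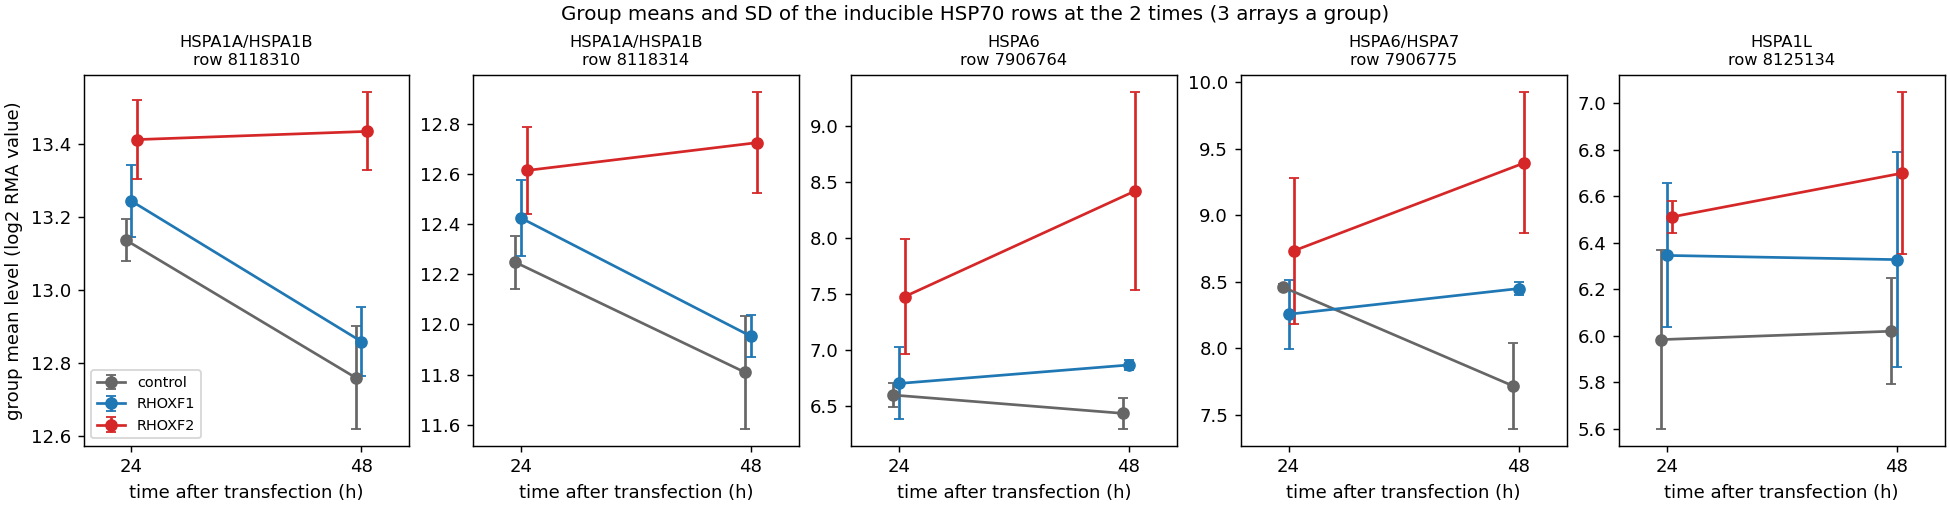
Group mean of each profile at 24 h and 48 h for the 3 vectors, in log2 RMA units, with bars of 1 SD over 3 arrays. Control and RHOXF1 means are lower at 48 h in the HSPA1A/HSPA1B panels while the RHOXF2 mean stays near 13.4 in row 8118310, and the RHOXF2 mean of HSPA6 is 0.94 higher at 48 h.

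The gap between RHOXF2 and control at 48 h can be written as the gap at 24 h plus the change in RHOXF2 cells minus the change in control cells. For HSPA6, 1.98 is 0.88 plus 0.94 minus -0.16. In the HSPA1A/HSPA1B row 8118310, 0.68 is 0.28 plus 0.02 minus -0.38. Row 8118314 gave 0.37, 0.11 and -0.44, the HSPA6/HSPA7 row 0.27, 0.66 and -0.74, and HSPA1L 0.53, 0.19 and 0.04. The changes over time use the 48 h arrays on which the genes were chosen, so nothing is read from the size of these terms. Set against control cells of 24 h, RHOXF2 cells of 48 h read 1.82 higher for HSPA6, 0.93 for the HSPA6/HSPA7 row, 0.30 and 0.48 for the HSPA1 profiles and 0.72 for HSPA1L. All 3 RHOXF2 arrays lay above every 24 h control array except in HSPA1L, where 2 did.

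Arrays of 1 group differed from each other in ways the members shared in part. Correlations below run over 18 arrays of 1 cell line and 6 groups, after the group mean is taken out, and describe these arrays only. The HSPA1 profiles went together at r = 0.83, HSPA6 with HSPA1 row 8118310 at 0.65 and with row 8118314 at 0.50, and HSPA6 with the HSPA6/HSPA7 row at 0.55. The HSPA6/HSPA7 row went with HSPA1 rows 8118310 and 8118314 at 0.35 and 0.21. HSPA1L did not go with HSPA6 (-0.10) or with the HSPA6/HSPA7 row (-0.08), and stood at -0.12 with HSPA1 row 8118310 and at 0.25 with row 8118314. Replicate 3 of RHOXF2 at 48 h lay 0.99 below its group mean for HSPA6 and 0.60 below for HSPA6/HSPA7, but 0.17 above it for HSPA1L. Replicate 1 of RHOXF2 at 24 h lay 0.59 below for HSPA6 and 0.25 below for HSPA6/HSPA7.

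**Figure D4:**
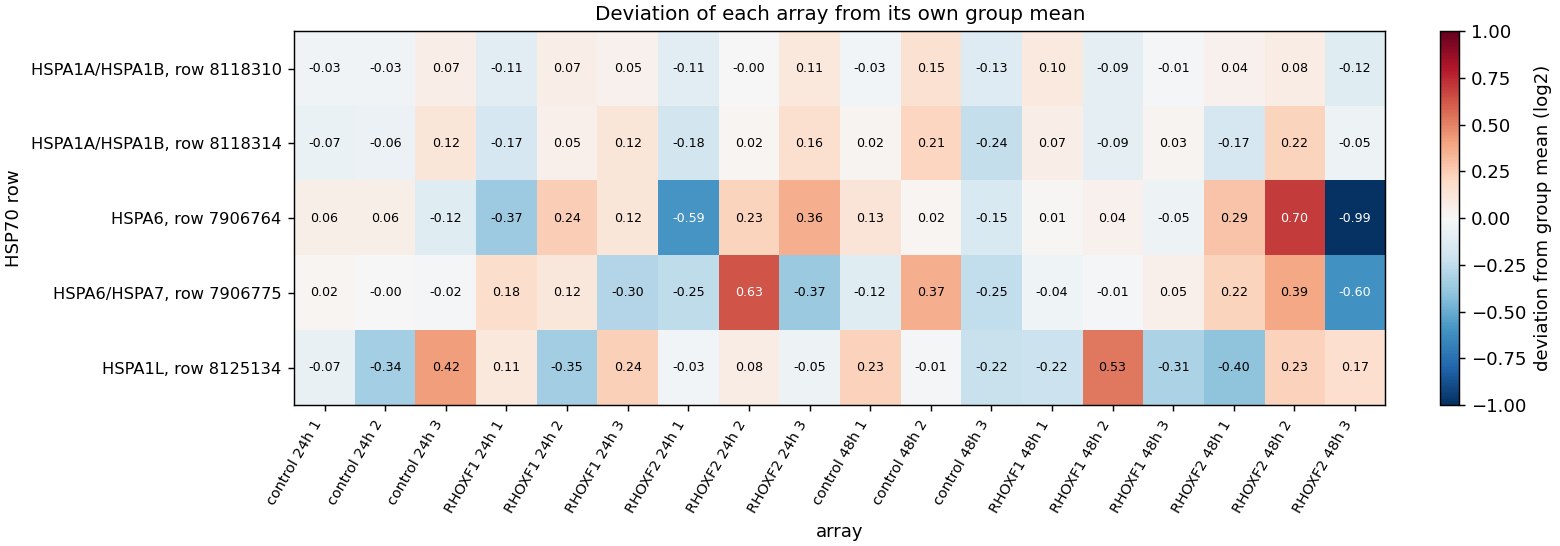
Deviation of each array from its group mean in log2, for the 5 profiles and 18 arrays, with the value in each cell. The HSPA6 deviation of -0.99 on replicate 3 of RHOXF2 at 48 h is the lowest cell.

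The HSP70 family outside the members and the partners of HSP70 were measured from lists, given by counts. Of 12 other HSP70 family genes, 10 read higher in RHOXF2 than control cells at 48 h and 1 was called, HSPH1, a nucleotide exchange factor of the HSP110 class, with a difference of 1.12. The list median was 0.20 beside 0.01 over all rows, of which 53.9% read higher and 0.0848% were called higher. HSPA8, the constitutive cytosolic form, read 0.23 higher, HSPA2 0.59, HSPA9 of mitochondria 0.09 and HSPA5 of the endoplasmic reticulum -0.16. In RHOXF1 cells of 48 h 9 of 12 read higher, beside 52.6% of all rows, and none was called, with HSPA8 at 0.23 and HSPA2 at 0.43.

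Among 11 J-domain proteins, which deliver clients to HSP70, 8 read higher in RHOXF2 cells at 48 h and 1 was called: DNAJB1, at 1.57, beside 1.12 in RHOXF1 cells, where it was not called. The list median was 0.05. Of 10 other co-chaperones all read higher and BAG3, an exchange factor that couples HSP70 to autophagy, was called at 0.57, while the ubiquitin ligase STUB1 read 0.01. Of 5 measured heat shock factors and regulators, none was called, with HSF1 at 0.10 and its binding protein HSBP1 at -0.02; HSF2 had no row. Of 18 other targets of heat shock factor 1, 16 read higher with a median of 0.21 and none was called. HSPA4L was counted both here and among the other HSP70 family genes. The counts of all these lists stand beside the 53.9% of all rows that read higher in this comparison and the 0.0848% called higher.

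At 24 h the list medians were nearer to 0 in RHOXF2 cells, where DNAJB1 read 0.69 higher, BAG3 0.41, HSPH1 0.22 and HSPA8 0.08. There limma called none of the list genes, where it called 0.00943% of all rows, so nothing is read from the absence of calls. RHOXF1 cells of 24 h read 0.64, 0.24, 0.0047 and 0.07 higher than control in the same order, again with none called, where 0.00471% of all rows were. Over time in control cells, 7 of the 12 other HSP70 family genes were called lower, HSPH1 by -1.22, HSPA2 by -0.52 and HSPA8 by -0.35 among them, where 7.89% of all rows were. In RHOXF1 cells from 24 h to 48 h, 2 of the 12 other HSP70 family genes were called lower, where 1.35% of all rows were. These were HSPH1, which fell by 0.88 (limma adjusted p = 0.00780), and HSPA4, a relative of it, which fell by 0.45 (limma adjusted p = 0.0157). Of 18 other targets of heat shock factor 1, 1 was called higher and 1 lower. HSPB8 rose by 0.67 (limma adjusted p = 0.0135) and CHORDC1, a co-chaperone of HSP90, fell by 0.72 (limma adjusted p = 0.0108). The changes of HSPH1 and HSPA4 were -1.22 and -0.48 in control cells and -0.32 and -0.33 in RHOXF2 cells. Over all 18 other targets of heat shock factor 1, HSPB8 and CHORDC1 included, the changes ran from -0.54 to 0.61 in control cells. They ran from -0.46 to 1.14 in RHOXF2 cells. In control cells 1 of these 18 was called higher and 6 lower, where 7.89% of all rows were called lower. In RHOXF2 cells 1 was called higher and 0 lower, where 1.24% of all rows were called in either direction.

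**Figure D5:**
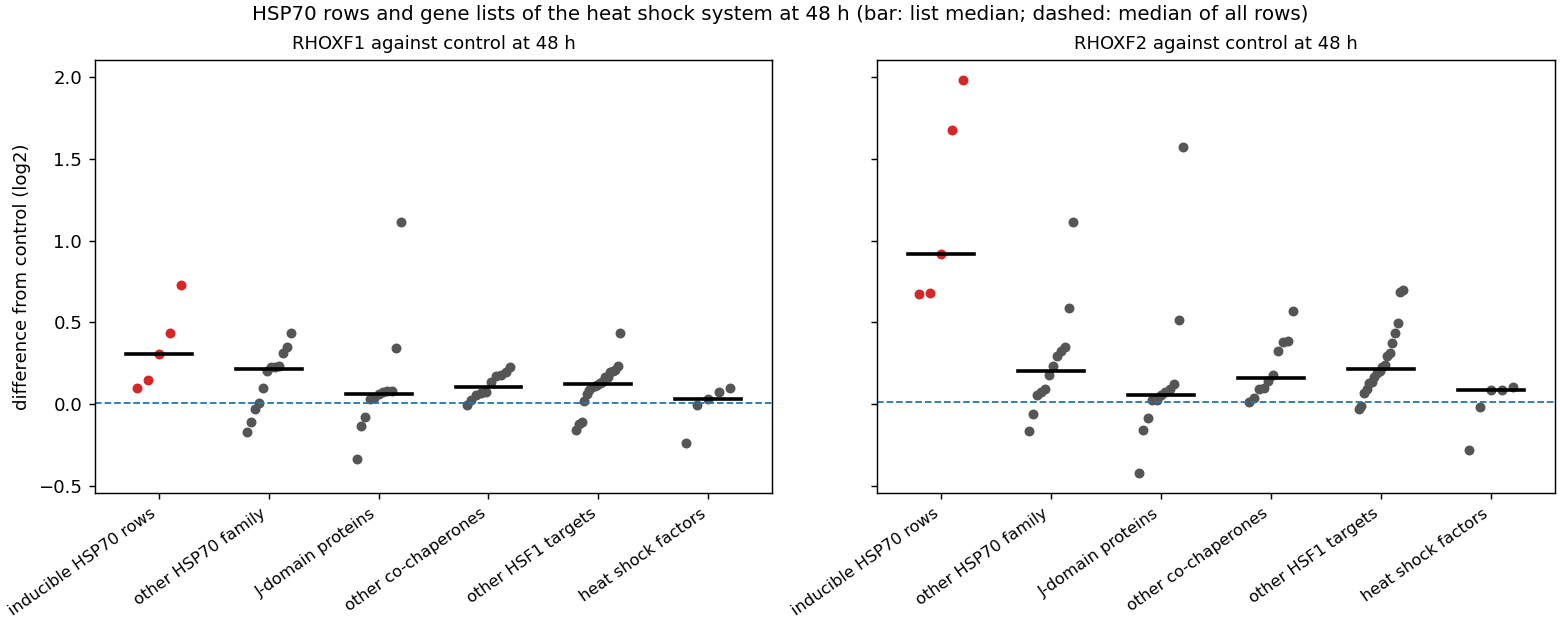
Log2 difference from control at 48 h of the genes of each list (grey points) beside the 5 member profiles (red points), for RHOXF1 and RHOXF2, with a bar at the list median and a dashed line at the median of all rows. DNAJB1 at 1.57 and HSPH1 at 1.12 lie highest outside the members for RHOXF2 against control at 48 h.

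The genes that flank the members gave a local comparison. On chromosome 6, LSM2 read -0.03 in RHOXF2 against control cells at 48 h, VARS1 0.17, VWA7 -0.09, SNORD52 -0.36 and the row shared by SNHG32 and SVIL -0.14. On chromosome 1, FCGR2A read 0.12, FCGR3A 0.09, and the rows that list FCGR2C with FCGR2B and FCGR3B with FCGR3A read -0.02 and -0.0045. None of these rows was called in a comparison of RHOXF1 or RHOXF2 with control at either time. The SNHG32 and SVIL row was called higher at 48 h than at 24 h in all 3 vectors, by 0.65 in control cells, 0.62 in RHOXF1 cells (limma adjusted p = 0.00170) and 0.46 in RHOXF2 cells.

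The genes most like the members over the 18 arrays were ranked by Pearson r among 9296 candidate genes, as a description. For the mean of the HSPA1A/HSPA1B rows these were HSPH1 (0.83), TCOF1 (0.80), SENP1 (0.78), MRTFB (0.77) and AZIN1 (0.77). HSPA6 was followed by DNAJB1 (0.78), RAPH1 (0.73), ISCA2 (0.71), BAG3 (0.65) and TBX2 (0.65), and HSPA1L by MYO5C (0.87), HUNK (0.86), TRIM8 (0.86), ZNF808 (0.86) and CSRP1 (0.85). Ranking by Spearman's rho kept 2 of 5 for HSPA1A/HSPA1B (HSPH1, SENP1), 2 of 5 for HSPA6 (DNAJB1, BAG3) and 3 of 5 for HSPA1L (MYO5C, TRIM8, CSRP1).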

How the data were processed

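Total RNA of HEK293 cells was hybridised to 18 Affymetrix arrays, 1 per sample. The deposited values are on a log2 scale and were made with RMA in Affymetrix Expression Console 3.1, per the labels. Sample descriptions give a Human Gene ST array and the series design an Exon ST array. Gene symbols came from the platform annotation, which gave 1 symbol for 19460 of 33297 rows, several for 1754 and none for 12083.

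Linear models (lmFit and eBayes of limma 3.58.1, under R 4.3.3) had 1 mean for each of 6 groups over all 18 arrays, 12 residual degrees of freedom and no replicate block, over the 21214 named rows. Tests were two-sided with Benjamini-Hochberg adjustment at 0.05 within each of 9 comparisons. The fit was also run on simulated data with independent noise on each array. Deviations of most same-numbered arrays of 24 h went together in the real data, so that run says nothing on such dependence. SD is over 3 arrays, SE is limma's, and the number of arrays limits the precision. Each row had 1 spread shared by all 18 arrays. Every SE and p of a member, also at 24 h, thus draws on the 48 h arrays on which the genes were chosen. For HSPA6 the SD was 0.88 in RHOXF2 cells of 48 h and 0.05 to 0.51 in the other groups. The labels do not say whether the replicates were separate cultures, beyond calling them biological triplicates.

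The members, lists and named genes were chosen with earlier results of these data known. Named were all member rows, RHOXF1, RHOXF2, 11 fixed partners, the neighbours by position and, for each of 3 profiles, the 5 most like genes with 1 symbol and a mean level above the median; list genes called from 24 h to 48 h in RHOXF1 cells were named after their values were seen. Promoters came from RefSeq (GRCh38.p14), and 4 of the 5 members had one. Alternatives covered normalization, row filters, array weights, the variance model, the samples in the fit, a replicate block and leaving out each array.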

Additional observations from a re-analysis of the deposited data

Results flagged for a closer look

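The change of an array from 24 h to 48 h, taken as each 48 h array minus the mean of the 24 h arrays with the same vector, went opposite ways in some groups. For HSPA6, every RHOXF1 array moved up, by 0.12 to 0.21, and every control array moved down, by -0.31 to -0.04, so the mean changes differ by 0.33. The RHOXF1 direction hangs on 1 array: replicate 2 of 24 h, at 6.94, lay above all RHOXF1 arrays of 48 h, and without replicate 1 of 24 h the mean RHOXF1 change was -0.017. For the row shared by HSPA7 and HSPA6, the RHOXF1 arrays moved up by 0.15 to 0.24 and the control arrays down by -0.99 to -0.38, a gap of 0.93. Most of the RHOXF1 move hangs on replicate 3 of 24 h, at 7.96, without which the mean change was 0.045. The RHOXF1 arrays of the times also overlapped, with replicate 1 at 8.44 at 24 h and 8.41 at 48 h. On the same row RHOXF2 arrays moved up by 0.05 to 1.04, a gap of 1.40 to control. These differences between groups were not tested, and all of them use the control arrays of 48 h, on which the genes were chosen.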

How the results depend on the processing

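Of 687 differences of the members recomputed under the alternatives, 621 kept their direction and their side of the threshold, 44 lost a call, 7 gained one, 9 changed sign and 6 descriptive values without a call changed sign. Counts of called member rows moved as follows, and the cause was not tested. With only the arrays of the 2 groups compared, the count was 0 for RHOXF2 against control at 48 h and for RHOXF2 against RHOXF1 at 48 h, and 2 for control cells at 48 h against 24 h. With array weights it was 2 for control cells and 1 for RHOXF2 cells over time. Cyclic loess left 0 rows for RHOXF1 cells over time. With all rows tested it was 2 for RHOXF1 cells over time and 0 for RHOXF2 against RHOXF1 at 48 h. Leaving out 1 array at a time gave counts of 0 to 5 for RHOXF1 cells over time, 0 to 6 for RHOXF2 against RHOXF1 at 48 h (0 without RHOXF2 replicate 2 or RHOXF1 replicate 2 or 3, and 3 without RHOXF2 replicate 1), 0 to 2 for RHOXF2 cells over time and 1 to 6 for control cells over time.

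Sign changes were confined to values that were not called. For HSPA1L in RHOXF1 cells over time, a repeated quantile normalization gave 0.015 and leaving out arrays gave -0.28 to 0.14. Leaving out arrays gave -0.017 to 0.29 for HSPA6 in RHOXF1 cells over time, -0.018 to 0.29 for HSPA6 in RHOXF1 against control at 24 h, -0.0084 to 0.29 for HSPA1L in RHOXF2 against RHOXF1 at 24 h, and -0.041 to 0.46 for the HSPA6/HSPA7 row in RHOXF2 against control at 24 h.

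At 24 h, 8 of 9 same-numbered pairs of arrays had deviations with r over 0.1, against 2 of 9 at 48 h, so the numbers do not pair the arrays throughout. With a replicate block, fitted within each time, 7 member rows were called for RHOXF2 against control at 48 h and 6 for RHOXF2 against RHOXF1 at 48 h, HSPA6 being gained, and 0 in the 24 h comparisons. The block could not be fitted to changes between the times, and a filter on rows above the median level gave no value for HSPA6 and HSPA1L, whose rows it removes.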
